A study of Mus musculus with 6 samples.

Results

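The abundance of 8 long noncoding RNAs, Malat1, Neat1, Meg3, Rian, Mirg, Miat, Snhg11 and Snhg14, was described in the lateral septum (LS) of mice fed olanzapine or control chow. The members were chosen by gene symbol out of 35415 genes in the count table, at a time when the values of this same comparison were known, so their differences between the diets are a description. How many of them pass the thresholds is set beside the share of all genes that do, and is not evidence. All 8 were found once in the table, and all 8 passed the filter on low counts that left 17255 genes for testing. Female C57BL/6 mice came in at 8 weeks of age, were acclimated for 1 week and then ate chow with 50 mg olanzapine per kg of feed, or the same chow without the drug, for 12 weeks. Olanzapine is an antipsychotic known for weight gain and metabolic side effects, and the samples on the drug carry the name MetS in the data columns. Each group had 3 pools, each pool joined the LS of 3 mice, and one bulk RNA-seq library was made per pool, so the spread between mice within a pool was not measured. The libraries held between 38208153 and 39868872 counts assigned to genes. The study asked how long-term olanzapine alters gene expression in the LS.

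Long noncoding RNAs are transcripts that are not translated into a long protein, and those described here are known mainly from the nucleus. Malat1 sits in nuclear speckles, the stores of splicing factors, and Neat1 is the scaffold of paraspeckles. Meg3, Rian and Mirg are read from the maternal chromosome of the imprinted Dlk1-Dio3 region and host microRNAs and small nucleolar RNAs (snoRNAs), and they are often regarded as pieces of one long transcription unit. Miat binds splicing factors, Snhg11 is a neuronal snoRNA host gene, and Snhg14 is the paternal transcript that hosts the Snord116 and Snord115 clusters and runs antisense into Ube3a. Where in the cell or in which cell type these RNAs lay was not measured. In bulk tissue, fewer cells of a type and less RNA per cell cannot be told apart. The first olanzapine pool stood apart on Slc17a7, the vesicular glutamate transporter of excitatory neurons, with 25735 normalized counts against 822 and 417 in the other olanzapine pools and 890 to 2152 in the control pools. The neuron genes Snap25 (82220 against 49103 and 49886) and Syt1 (59812 against 35059 and 37411) were also highest in that pool. Other neuron genes were lowest of the 6 pools there, namely Gad2 (19843), Gad1 (23651), Slc32a1 (10403) and Slc17a6 (1308). The septal gene Zic1 was lowest there as well (7947 against 10467 and 12722). Without the first olanzapine pool, the log2 fold changes of the members were 1.24 for Malat1, 0.56 for Neat1, 1.28 for Meg3, 0.25 for Rian, 0.75 for Mirg, 0.93 for Miat, 1.31 for Snhg11 and 0.93 for Snhg14.

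The promoter windows below show a start of transcription of each of the 4 members that differed by more than 2-fold, with that of Rian, the member with the smallest difference, set beside them. Each window runs from 250 bases before to 50 bases after the start of a RefSeq transcript (GRCm38.p6) and is given 5′ to 3′ on the strand of the gene. Capitals mark matches to 4 short motifs on either strand. The GC box was searched as GGGCGG, and the TATA box as TATAAA. The CCAAT box was searched by the letters of its name, and the core of the cAMP response element as TGACG. Matches to one motif on opposite strands may overlap.
Malat1, chr19:5802623-5802922, minus strand: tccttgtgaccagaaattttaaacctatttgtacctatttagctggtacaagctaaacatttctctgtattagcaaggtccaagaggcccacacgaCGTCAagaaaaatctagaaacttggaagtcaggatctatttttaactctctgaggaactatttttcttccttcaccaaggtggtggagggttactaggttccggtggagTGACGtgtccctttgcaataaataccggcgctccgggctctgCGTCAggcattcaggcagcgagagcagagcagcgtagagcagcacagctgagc
Meg3, chr12:109540746-109541045, plus strand: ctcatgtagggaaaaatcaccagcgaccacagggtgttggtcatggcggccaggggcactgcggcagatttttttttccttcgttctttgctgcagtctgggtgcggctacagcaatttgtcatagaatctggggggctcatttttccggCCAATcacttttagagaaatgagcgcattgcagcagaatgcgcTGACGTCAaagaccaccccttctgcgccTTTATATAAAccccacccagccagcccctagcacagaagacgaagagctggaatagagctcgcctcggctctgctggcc
Miat, chr5:112228899-112229198, minus strand: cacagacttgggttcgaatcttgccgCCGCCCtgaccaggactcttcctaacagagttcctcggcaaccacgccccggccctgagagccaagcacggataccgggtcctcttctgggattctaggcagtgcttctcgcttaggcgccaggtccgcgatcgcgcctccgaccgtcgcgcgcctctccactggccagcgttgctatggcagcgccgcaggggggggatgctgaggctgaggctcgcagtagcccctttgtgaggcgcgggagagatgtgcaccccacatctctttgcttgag
Snhg11, chr2:158375463-158375762, plus strand: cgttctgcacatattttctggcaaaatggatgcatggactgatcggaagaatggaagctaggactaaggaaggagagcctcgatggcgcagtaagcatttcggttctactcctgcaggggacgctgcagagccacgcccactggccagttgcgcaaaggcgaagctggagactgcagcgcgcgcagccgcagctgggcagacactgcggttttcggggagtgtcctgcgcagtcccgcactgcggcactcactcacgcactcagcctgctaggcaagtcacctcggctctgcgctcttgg
Rian, chr12:109603695-109603994, plus strand: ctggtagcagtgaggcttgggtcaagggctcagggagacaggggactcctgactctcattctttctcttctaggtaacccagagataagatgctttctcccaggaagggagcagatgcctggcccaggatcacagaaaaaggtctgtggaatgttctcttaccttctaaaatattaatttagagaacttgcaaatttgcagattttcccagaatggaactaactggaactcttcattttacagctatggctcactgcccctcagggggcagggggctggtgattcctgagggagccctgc
The 5 windows shared no motif that all of them held. Meg3 held a CCAAT box, a TATA box matched on both strands and the palindrome of the TGACG core, and Malat1 held the TGACG core 3 times. Miat held 1 GC box, and Snhg11 and Rian held none of these letters. Meg3 has a second RefSeq start, at chr12:109545148-109545447, whose window (not printed) held none of them and 1 CpG site. Over the 32851 promoter windows in the RefSeq table, 35.7% held a GC box, 37.4% a CCAAT box, 13.6% a TATA box and 20.8% the TGACG core. The GC content was 64.3% at Miat, 60.0% at Snhg11, 53.7% at Meg3, 49.3% at Rian and 47.0% at Malat1, against a median of 52.7% over all windows. The Miat window held 25 CpG sites, Snhg11 21, Meg3 13 and Malat1 10, whereas the Rian window held 0. A match of letters is a description and does not show that a factor binds there.

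Malat1 (chr19:5795690-5802672, minus strand) and Neat1 (chr19:5824708-5845480, minus strand) are neighbours, 22.0 kb apart, and both are transcribed as long, mostly unspliced RNAs. The control pools held 3570, 4408 and 3832 Malat1 counts, and the pools on the drug held 10469, 8348 and 10171. The lowest olanzapine pool lay 1.89-fold above the highest control pool on normalized counts, so the groups did not overlap. The log2 fold change of Malat1, olanzapine over control, was 1.32 (SE 0.12, n = 3 pools per group), or 2.50-fold. For Neat1 the counts were 3225, 3348 and 3968 on control chow, against 4434, 5590 and 4758 on olanzapine. Its groups did not overlap either, but the lowest olanzapine pool was only 1.16-fold above the highest control pool. The log2 fold change of Neat1 was 0.51 (SE 0.11), or 1.42-fold. Per length, the level of Malat1 was 3.36 ± 0.53 times that of Neat1 in the control pools and 5.94 ± 1.34 times in the olanzapine pools (ratio of FPKM, mean ± SD, n = 3), with no overlap between the groups. The size of this ratio depends on the lengths used, 6983 bases for Malat1 and 20773 for Neat1. In normalized counts the control means were closer, 3906 and 3487.

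Miat (chr5:112213228-112228948, minus strand), which carries repeats that bind splicing factors, was the least even member. Its counts were 3824, 3622 and 2916 on control chow, against 10113, 5780 and 7299 on olanzapine. Every olanzapine pool was above every control pool, and the first olanzapine pool stood well above the other two. The coefficient of variation of Miat was 30.6% in the olanzapine group, the highest of any member in either group, and the log2 fold change was 1.19 (SE 0.21), or 2.28-fold. Without the first olanzapine pool, the one that stood apart on Slc17a7, it was 0.93, below the 2-fold limit. The part of excitatory neuron RNA in the Miat value of that pool was not tested.

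**Figure D1:**
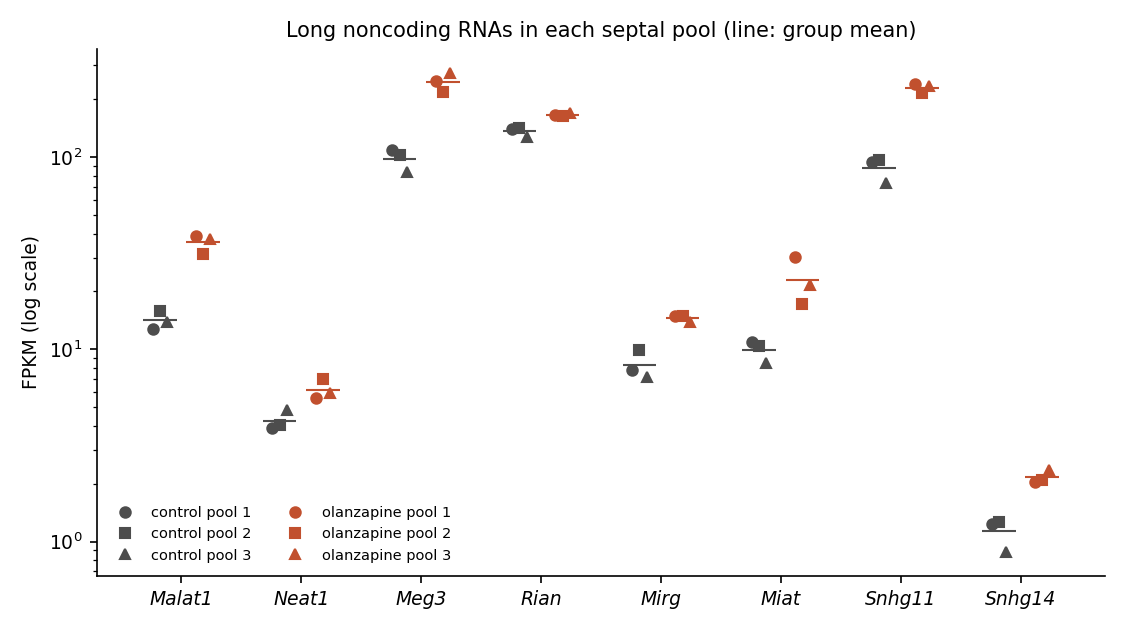
Level of each long noncoding RNA in FPKM on a log scale, with a symbol for each of the 3 control (grey) and 3 olanzapine (orange) pools and a line at the group mean. For each of the 8 RNAs all 3 olanzapine symbols lie above the 3 control symbols, with the narrowest gaps at Rian and Neat1 and the widest scatter at Miat.

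Meg3 (chr12:109540996-109571729), Rian (chr12:109603945-109661716) and Mirg (chr12:109734981-109749458) lie on the plus strand in this order, with 32.2 kb between Meg3 and Rian and 73.3 kb between Rian and Mirg. The control pools held 56242, 52545 and 42796 Meg3 counts, and the pools on the drug held 124032, 107946 and 137172, without overlap. The log2 fold change of Meg3 was 1.31 (SE 0.14), or 2.47-fold. For Rian the counts were 19937, 20122 and 17909 on control chow, against 22660, 22342 and 23554 on olanzapine. This was the narrowest gap of all members, 1.11-fold between the nearest pools, and the log2 fold change was 0.26 (SE 0.08), or 1.20-fold. For Mirg they were 405, 514 and 367 on control chow, against 741, 740 and 698 on olanzapine, again without overlap. Mirg thus lay between the other two, with a log2 fold change of 0.78 (SE 0.14), or 1.72-fold.

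The 3 transcripts of the imprinted group therefore differed in size of change, and the ratios within each pool show the same pattern without reference to library size. Rian per Meg3, as a ratio of FPKM, was 1.28, 1.38 and 1.51 on control chow, against 0.660, 0.748 and 0.621 on olanzapine. On the deposited lengths, Rian was thus above Meg3 in each control pool and below it in each olanzapine pool. Mirg per Meg3 was 0.0849 ± 0.0129 on control chow, against 0.0595 ± 0.0088 on olanzapine. Mirg per Rian was 0.0610 ± 0.0082, against 0.0877 ± 0.0052 (mean ± SD, n = 3). The groups overlapped in neither ratio. The length used for FPKM was 12957 bases for Meg3, 3584 for Rian and 1300 for Mirg, whereas the exons of all GENCODE transcripts joined covered 18089, 18234 and 7292 bases. The lengths taken for Rian and Mirg thus cover a small part of their annotated exons. With the joined exons as length, Rian per Meg3 was 0.352, 0.380 and 0.415 on control chow, against 0.181, 0.205 and 0.170 on olanzapine. Which of the 2 is higher in the control pools therefore depends on the length used, while the lower ratio on olanzapine does not. Whether other parts of these transcripts differed by the same amount was not tested.

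**Figure D2:**
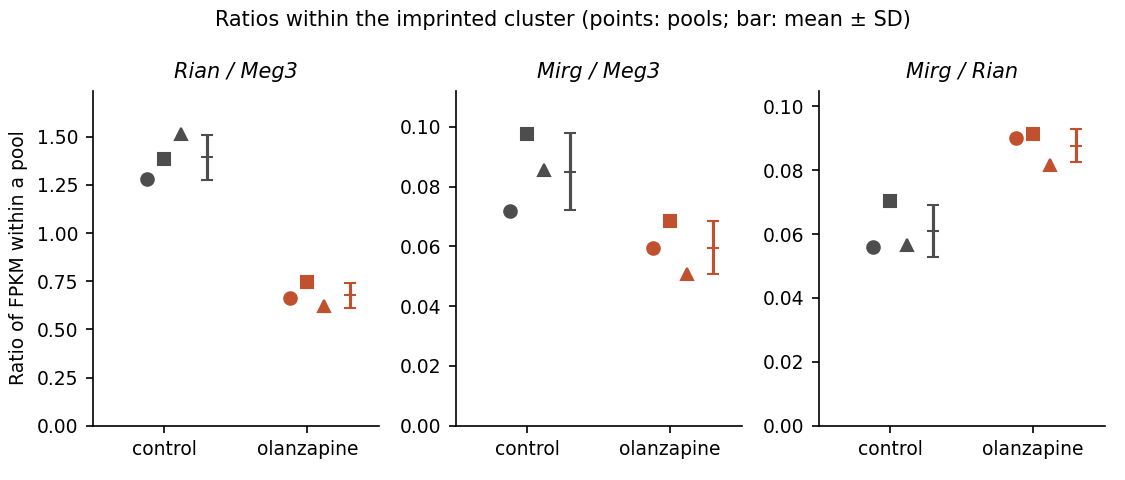
Ratios of FPKM within a pool for Rian per Meg3, Mirg per Meg3 and Mirg per Rian, with a symbol per pool (circle, square and triangle for pools 1, 2 and 3) and the mean ± SD beside them. On the deposited lengths, Rian per Meg3 lies above 1 in the 3 control pools and below 1 in the 3 olanzapine pools, and Mirg per Rian is higher in the olanzapine pools.

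From the start of Meg3 to the end of Mirg there are 208.5 kb with 57 microRNA hairpins in the RefSeq table, of which 3 lie within Rian and 10 within Mirg. These libraries did not measure mature microRNAs. The sequences below name one product of each host and the only pair of Mirg products with the same seed, with the seed (bases 2 to 8) in capitals.
miR-770-5p (Meg3): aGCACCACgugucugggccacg
miR-370-3p (Rian): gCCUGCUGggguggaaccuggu
miR-453 (Mirg): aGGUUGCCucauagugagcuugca
miR-496a-5p (Mirg): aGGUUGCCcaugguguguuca
The 19 mature products within Mirg carry 18 different seeds, and GGUUGCC is the one that occurs in both miR-453 and miR-496a-5p.

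None of the tested neighbours in the Dlk1-Dio3 region passed the main test. Of 13 neighbours, 0 had an adjusted p under 0.05 by edgeR in either direction, 1 was lower at an unadjusted p under 0.05, and DESeq2 called 1 lower, Dlk1. Their median log2 fold change was 0.02, against 0.00 over all genes tested. Dlk1, the paternally expressed ligand of the region, had 5728 normalized counts in the control and 4278 in the olanzapine group, with a log2 fold change of -0.42 (SE 0.13, adjusted p = 0.158, edgeR quasi-likelihood F test, Benjamini-Hochberg). Rtl1, the paternal retrotransposon-derived gene that overlaps the ends of Meg3 and Rian, had a log2 fold change of 0.36 (SE 0.23), and Dio3, which inactivates thyroid hormone, one of -0.19 (SE 0.22). Begain, Evl and Slc25a47 had values of 0.19, 0.13 and 0.38 with all olanzapine pools above the control pools. The values for Slc25a29, Yy1, Ppp2r5c and Wars were 0.13, 0.03, 0.02 and 0.00, and those for Wdr25, Degs2 and Dio3os were -0.19, -0.20 and -0.40.

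**Figure D3:**
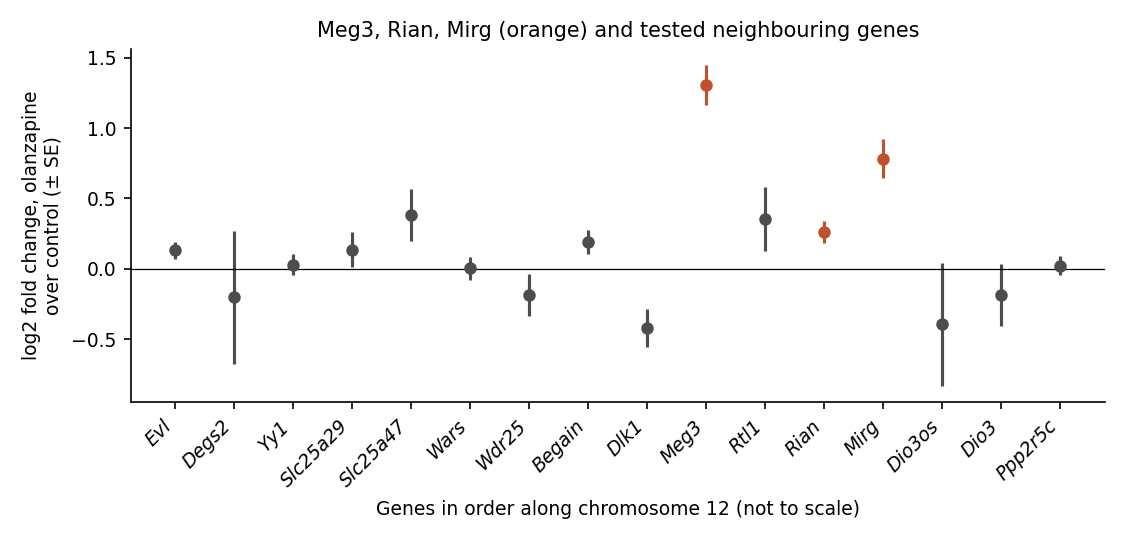
The log2 fold change (olanzapine over control, ± SE) of 16 genes in their order along chromosome 12, with Meg3, Rian and Mirg in orange and the 13 tested neighbours in grey. Meg3 and Mirg stand above the neighbours, Rian lies within their range of -0.42 to 0.38, and Dlk1 has the lowest value.

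Snhg11 (chr2:158375713-158386474, plus strand) was counted 22955, 23524 and 17647 times in the pools on control chow, against 56574, 50207 and 55520 times on olanzapine. It had the widest gap between the groups, 2.14-fold between the nearest pools, with a log2 fold change of 1.36 (SE 0.13), or 2.57-fold, which lies within the errors of Malat1 and Meg3. Snhg14 (chr7:59272737-60450177, minus strand), which spans 1177.4 kb, was counted 1194, 1220 and 845 times on control chow, against 1894, 1925 and 2204 times on olanzapine. The groups did not overlap, and the log2 fold change was 0.91 (SE 0.14), or 1.88-fold. Snhg11 per Snhg14, as a ratio of FPKM, was 78.3 ± 3.7 in the control and 107 ± 10 in the olanzapine pools (mean ± SD, n = 3), without overlap.

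Snhg14 overlaps 38800 bases of Ube3a, the ubiquitin ligase gene on the opposite strand, and Snrpn on its own strand. The strand setting of the counting was not given in the sources used here, so reads from the 2 strands of the overlap cannot be told apart. Ube3a had 6018 ± 331 normalized counts in the control and 4771 ± 163 in the olanzapine group, and all olanzapine pools were below the control pools. Its log2 fold change was -0.34 (SE 0.07), and it did not pass the threshold (adjusted p = 0.0532, edgeR quasi-likelihood F test, Benjamini-Hochberg). Of the 11 tested genes around Snhg14, 0 passed by edgeR in either direction, 2 were lower at an unadjusted p under 0.05, and DESeq2 called 1 lower, Ube3a. Their median log2 fold change was -0.24. The GABA receptor subunit genes Gabrg3 and Gabra5 had log2 fold changes of -0.30 and -0.09, and Herc2 and Atp10a had -0.25 and -0.36. The imprinted genes Snrpn, Ndn, Magel2 and Mkrn3 had -0.24, -0.10, -0.16 and 0.00, and Oca2, with a wide error, had -0.78 (SE 1.23). Of 20 other snoRNA host genes tested, 0 passed an adjusted p under 0.05 by edgeR, 5 were higher at an unadjusted p under 0.05, and DESeq2 called 1 higher, Dancr. The median log2 fold change was 0.27, and the 2 with the most counts, Gas5 and Zfas1, had 0.23 (SE 0.13) and -0.02 (SE 0.12).

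How abundant the members are depends on the measure. By mean FPKM over the 6 pools, Meg3 ranked 285, Snhg11 314 and Rian 336 among the 17255 genes, whereas Malat1 ranked 2437, Miat 3678, Mirg 4967, Neat1 7999 and Snhg14 11569. By mean count, which does not allow for length, the ranks were 19 for Meg3, 70 for Snhg11, 186 for Rian, 1180 for Malat1, 2121 for Neat1, 5578 for Snhg14 and 9254 for Mirg, with Miat between Malat1 and Neat1. Among the 1963 tested long noncoding RNAs, members included, the count ranks were 1 for Meg3, 2 for Snhg11, 5 for Rian, 7 for Malat1, 9 for Miat, 12 for Neat1, 29 for Snhg14 and 78 for Mirg. In the control pools the order of mean FPKM was Rian (136 ± 8), Meg3 (98.2 ± 12.9), Snhg11 (88.0 ± 12.9), Malat1 (14.2 ± 1.5), Miat (9.93 ± 1.31), Mirg (8.31 ± 1.45), Neat1 (4.26 ± 0.51) and Snhg14 (1.13 ± 0.21). The ranges of Meg3 and Snhg11 overlapped, as did those of Miat and Mirg, while the other neighbours in this order did not. In the olanzapine pools the order was Meg3 (247 ± 28), Snhg11 (230 ± 13), Rian (166 ± 3), Malat1 (36.0 ± 4.1), Miat (22.9 ± 6.5), Mirg (14.5 ± 0.6), Neat1 (6.17 ± 0.78) and Snhg14 (2.16 ± 0.17; all mean ± SD, n = 3). There, the ranges of Meg3 and Snhg11 were the only neighbouring ranges that overlapped, and Rian came below both, whereas it led the order in the control pools. The lead of Rian there holds for the deposited length only. In both groups the place of Mirg above Neat1 also rests on the deposited length of Mirg, 1300 bases, where its joined exons cover 7292. For Neat1 the 2 lengths were nearly the same, 20773 and 20771 bases. The 8 members together took 2793, 2748 and 2291 CPM (counts scaled to a common library total) on control chow, against 6008, 5310 and 6226 CPM on olanzapine. Meg3 and Snhg11 made up 67.0% to 71.1% of these counts in the control pools and 78.0% to 79.8% in the olanzapine pools.

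Read together, 8 of 8 members had all olanzapine pools above all control pools, where 13.3% of all genes did so and 11.0% had all olanzapine pools below. At an adjusted p under 0.05 with a log2 fold change above 1, the rule of the study for a changed gene, 4 of 8 were higher (Malat1, Meg3, Miat and Snhg11), where 0.950% of all genes were, and 0 were lower, where 0.0580% of all genes were. Without a limit on the fold, 6 of 8 were higher and 0 lower, where 1.83% of all genes were higher and 0.493% lower. Mirg and Snhg14 passed only without the fold limit, and Neat1 and Rian did not pass by edgeR. DESeq2 gave 7 of 8 higher without a fold limit, Neat1 included, where 3.34% of all genes it tested were higher and 2.40% lower, and edgeR with no count filter gave the same 7, where 1.29% of genes were higher. With limma on log2(FPKM + 0.1) 5 passed, without Snhg14, whose log2 fold change was 0.89 there (adjusted p = 0.0532, limma moderated t test, Benjamini-Hochberg). On the log2(FPKM + 1) scale Snhg14 passed, with a smaller log2 fold change of 0.57. The 6 became 3 without control pool 1 or olanzapine pool 3, and 4 without control pool 2 or 3 or olanzapine pool 2, while without olanzapine pool 1 there were 7. Since the members were listed with these values known, the counts carry no weight as evidence. The median log2 fold change of the members was 1.05. When the pools were left out one at a time, 3 instead of 4 members were called in each case but that without the second olanzapine pool, and Miat was the one lost.

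Likeness of the members over the 6 pools was measured as the root mean square (RMS) difference of log2 CPM, each gene centred on its own mean. The values were not scaled, so the measure follows the size of the change more than its shape. Meg3 and Snhg11, which lie on different chromosomes, were the nearest pair of members (0.082), and Snhg11 per Meg3 was 0.895 ± 0.046 in the control and 0.936 ± 0.069 in the olanzapine pools (ratio of FPKM, mean ± SD, n = 3), with overlap. Malat1 was nearest to Snhg11 (0.150), Mirg to Snhg14 (0.162), Miat to Meg3 (0.218) and Neat1 to Rian (0.219), and the farthest pair was Rian and Snhg11 (0.560). Among 13161 other genes with a mean of at least 100 counts, the nearest to Meg3 were Ttc14 (0.099), A930013F10Rik (0.123) and LOC118567689 (0.128), and the nearest to Snhg11 were A330023F24Rik (0.106), Ttc14 (0.111) and Dok3 (0.118). For Malat1 they were Cfp (0.110), Crip3 (0.117) and Gssos2 (0.125), and for Miat Coro6 (0.155), Mir124a-1hg (0.156) and LOC108167518 (0.160). Neat1 was nearest to Cyp27a1 (0.034), Gm35658 (0.035) and Letm2 (0.058), Rian to Taf1b (0.024), Ecsit (0.030) and 2010315B03Rik (0.033), Mirg to, among others, Tmem86b (0.078) and Col16a1 (0.088), and Snhg14 to Gm38585 (0.032), Gm46878 (0.077) and Zfp40 (0.086).

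Other long noncoding RNAs were compared by RefSeq type. Of these, 1955 others were tested, of which 24 were called higher and 1 lower by the 2-fold rule (1.23% higher, against 0.950% of all genes), with a median log2 fold change of 0.14. Of the 77 with a mean of at least 500 counts, 6 were called higher (7.79%) and 0 lower, with a median of -0.02. This mean ran over both groups, so a higher level on olanzapine could itself bring an RNA into the set and raise this share. Among those called, C030023E24Rik, Gm26871 and Gm50594 had control means of only 206, 352 and 319 normalized counts, against 803, 1217 and 971 on olanzapine. The 5 called ones with the most counts were Mir124a-1hg, A330023F24Rik, Ftx, Gm26871 and Gm50594. Ftx, which lies at the X inactivation centre, rose from a mean of 518 to 1896 normalized counts, with a log2 fold change of 1.87 (SE 0.12, adjusted p = 0.000372, edgeR quasi-likelihood F test, Benjamini-Hochberg). Mir124a-1hg, a host gene of the neuronal microRNA miR-124, rose by 1.46 (SE 0.19), A330023F24Rik by 1.36 (SE 0.14), Gm26871 by 1.79 (SE 0.14) and Gm50594 by 1.60 (SE 0.18). The one called lower was C130021I20Rik, with 16, 28 and 24 counts on control chow, against 3 in each pool on olanzapine. In a list of 28 tested long noncoding RNAs known from the literature, 5 passed an adjusted p under 0.05, all higher, with a median of 0.08 over the list. Of all genes, 1.83% were higher and 0.493% lower at this limit. The 5 of the list were Ftx, A330023F24Rik, Mir124a-1hg, Firre (log2 fold change 0.69, SE 0.08) and Kcnq1ot1, the imprinted antisense RNA of Kcnq1 (1.38, SE 0.22). Of 33 tested imprinted genes outside both regions, Kcnq1ot1 was the only one to pass by edgeR, and the median was -0.15. At an unadjusted p under 0.05, 1 was higher and 9 were lower, and DESeq2 called Kcnq1ot1 higher and 6 lower, namely Igf2r, Mest, Peg10, Peg3, Usp29 and Zdbf2. Norad, Xist, Tug1, Oip5os1 and Peg13, chosen after their values were seen, had log2 fold changes of -0.24 (SE 0.09), 0.07 (SE 0.10), -0.04 (SE 0.07), -0.50 (SE 0.21) and -0.19 (SE 0.09), and none of these 5 passed by edgeR. Norad, which acts in the cytoplasm, had 40798 normalized counts in the control and 34434 in the olanzapine group, and Xist, which coats the inactive X chromosome, had 26584 and 27842.

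**Figure D4:**
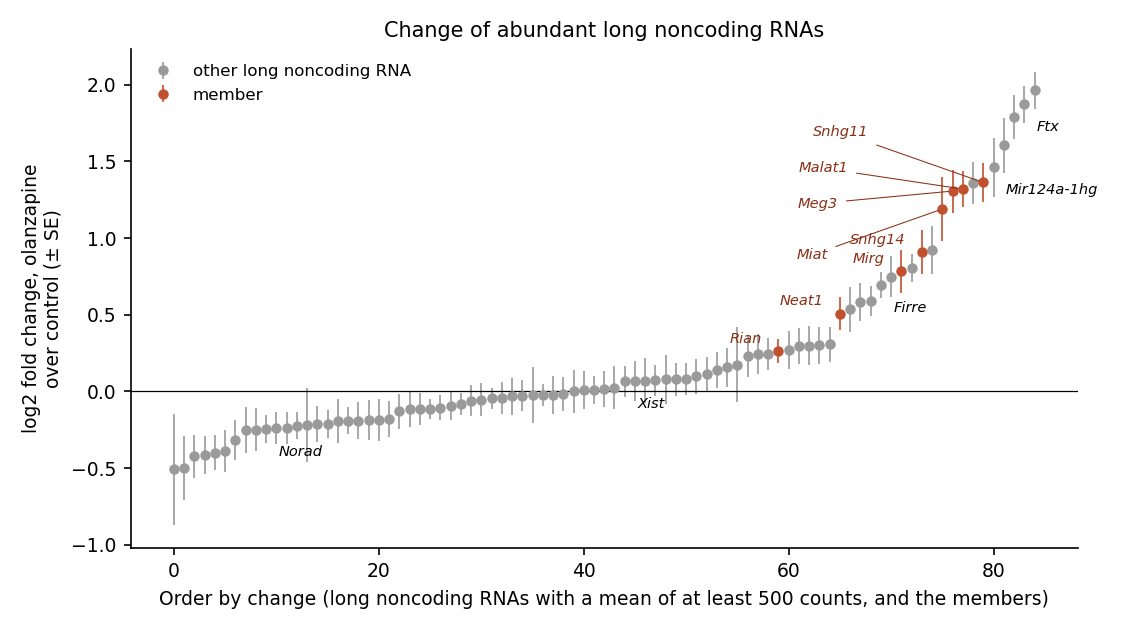
The log2 fold change (olanzapine over control, ± SE) of the 77 other long noncoding RNAs with a mean of at least 500 counts (grey) and the 8 members (orange), in order of size. Snhg11, Malat1, Meg3 and Miat lie near the upper end, with A330023F24Rik between Snhg11 and Malat1. Above them lie C030023E24Rik (1.96, the highest), Ftx, Gm26871, Gm50594 and Mir124a-1hg. Rian and Neat1 lie lower, and the median of the grey points is -0.02.

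The protein partners of these RNAs were compared from lists of known members. Of 16 tested nuclear speckle proteins, 4 rose and 0 fell at an adjusted p under 0.05 by edgeR, where 1.83% of all genes rose, with a median log2 fold change of 0.28, and DESeq2 called 8 higher, where it called 3.34% of all genes higher. They were Luc7l3 (0.62, SE 0.06), Srrm1 (0.56, SE 0.06), Rbm25 (0.38, SE 0.07) and Pnn (0.43, SE 0.08), all of which take part in splicing. Of 18 paraspeckle proteins, 1 rose and 0 fell by edgeR, with a median of 0.10, while DESeq2 called 6 higher (Cpsf6, Dazap1, Ewsr1, Rbmx, Sfpq and Tardbp) and 1 lower (Zc3h6). The one by edgeR was Sfpq, a core protein of paraspeckles that binds Neat1, which rose from a mean of 9213 to 13562 normalized counts, with a log2 fold change of 0.56 (SE 0.09, adjusted p = 0.0213, edgeR quasi-likelihood F test, Benjamini-Hochberg). Of 5 tested splicing factors linked to Miat, 0 passed by edgeR, 2 were higher at an unadjusted p under 0.05, and DESeq2 called 1 higher, Celf3. Among them the 2 with the most counts, Qk and Sf1, had -0.17 (SE 0.10) and 0.14 (SE 0.06).

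Transcripts known to keep some introns and stay in the nucleus were also higher on olanzapine. Of 22 tested, 15 rose and 0 fell at an adjusted p under 0.05, where 1.83% of all genes rose, and 0 passed the 2-fold limit. The median log2 fold change was 0.45. The 6 with the smallest adjusted p were Ccnl2 (0.81, SE 0.07), Clk4 (0.89, SE 0.08), Pnisr (0.75, SE 0.08), Tia1 (0.82, SE 0.09), Ccnl1 (0.73, SE 0.09) and Clk1 (0.87, SE 0.11), which include the Clk kinases and cyclins L that act on splicing factors. Their summed level ran from 3229 to 3365 normalized CPM in the control pools and from 3868 to 4200 in the olanzapine pools. This list was written with earlier results of these data known, so its direction is not independent evidence. The share of counts from the mitochondrial genome ran from 5.86% to 6.49% in the control pools and from 5.25% to 5.87% in the olanzapine pools. The part of nuclear RNA content or RNA quality in the difference of the members was not tested.

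**Figure D5:**
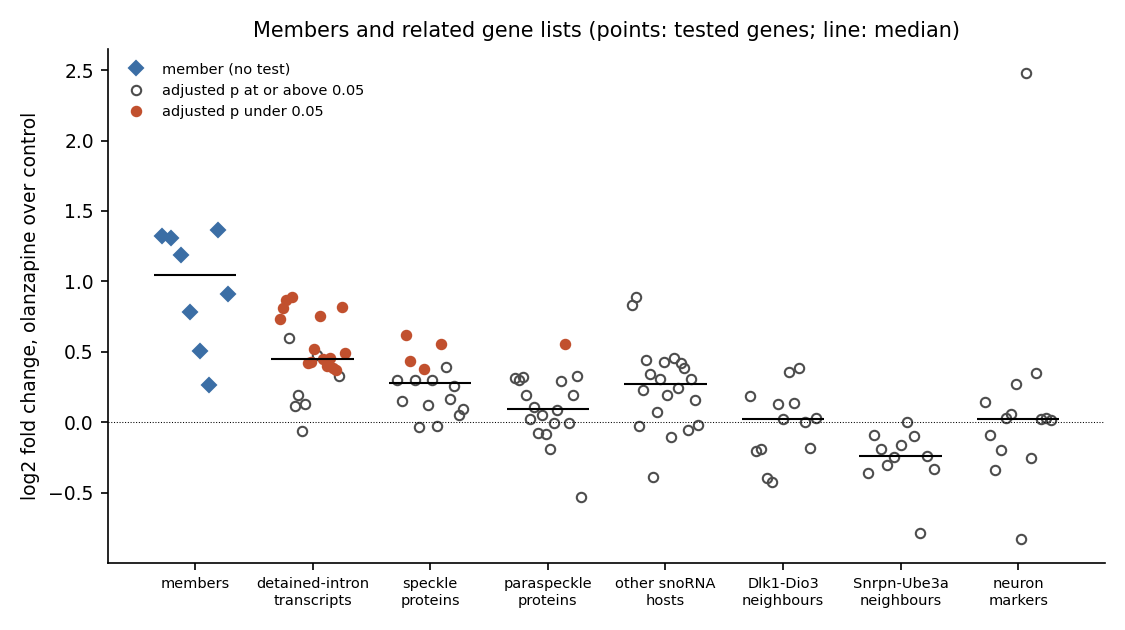
The log2 fold change (olanzapine over control) of the members (blue diamonds, no test) and of the tested genes of 7 related lists, filled where the adjusted p was under 0.05, with a line at the median of each list. The median is 1.05 for the members, 0.45 for the detained-intron transcripts, 0.28 for the speckle proteins and 0.03 for the neuron markers.

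No neuron marker passed the test. Of 14 tested, 0 passed an adjusted p under 0.05 by edgeR or by DESeq2, 2 were lower at an unadjusted p under 0.05, and the median log2 fold change was 0.03, with values of 0.35 (SE 0.19) for Snap25 and -0.20 (SE 0.11) for Map2. The highest value of the list was 2.48 (SE 1.33) for Slc17a7, which came from the first olanzapine pool. The 12 genes listed as septal markers, which include the cholinergic gene Chat, were all present and 0 passed by edgeR. At an unadjusted p under 0.05, 1 was higher (Npas1) and 3 were lower, and DESeq2 called 1 lower, Prdm16. Their median was -0.21, with Zic1 at -0.48 (SE 0.17) and Sst at 0.19 (SE 0.10). Markers of astrocytes (7), oligodendrocytes (10), microglia (7), endothelium (6), blood (5) and striatum (8) had 0 genes past an adjusted p under 0.05 by edgeR, with medians of -0.20, 0.04, 0.02, -0.41, 0.11 and 0.29. The 13 mitochondrial mRNAs also had 0, with a median of -0.21, as had the 8 choroid plexus markers, with a median of -0.63. Over these 64 genes 3 were higher and 10 lower at an unadjusted p under 0.05, and DESeq2 called 1 higher (Rgs9) and 4 lower (Abcb1a, COX2, ND5 and Pdgfra). The sum of the choroid plexus markers varied between pools, from 363 to 10347 normalized CPM in the control pools and from 323 to 6673 in the olanzapine pools, and its part in the difference of the members was not tested. Hepatocyte markers did move with the groups. Of 13, 12 were called higher, and the summed level of the 12 without Ttr, which the choroid plexus also makes, ran from 15.7 to 26.3 normalized CPM in the control pools and from 279 to 346 in the olanzapine pools. None of the 13 was at 0 in all pools, and Alb had 409 normalized counts in the control and 5709 in the olanzapine group. The part of the hepatocyte transcripts in the difference of the members was not tested.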

How the data were processed

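Pooled LS tissue was sequenced as paired-end RNA-seq, with 3 control and 3 olanzapine pools grouped by their labels. The authors cleaned the reads (fastp), mapped them (HISAT2) and deposited raw HTSeq-count read counts per gene, and the submitters' notes name mm10. The authors also deposited FPKM, which equals the counts divided by gene length and library total, so it adds no independent measurement and was used for levels per length. Strand setting and annotation version were not given in the sources used here. Of the per-sample columns, 0 were unused.

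The members and all gene lists were chosen with earlier results of these data known. Counts were fitted with edgeR 4.0.16 (R 4.3.3) by the quasi-likelihood F test, with TMM normalization, group as the only term, the filterByExpr filter (min.count 10, min.total.count 15) and Benjamini-Hochberg adjustment over 17255 genes. Calls needed an adjusted p under 0.05 together with a log2 fold change past 1 in size. The SE was the log2 fold change divided by the square root of F. With 3 against 3 pools an exact permutation test cannot give a p under 0.1. Each pool held 38208153 to 39868872 counts. Replicates are pools of 3 mice.

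Named were the 8 members, every tested gene of both imprinted regions, up to 6 genes per list by adjusted p (or else the 2 with the highest mean count), the 3 genes nearest to each member, and the 5 called long noncoding RNAs with the most counts. Some genes that this rule names are not reported here. RefSeq tables (GRCm38.p6) matched 33993 of 35415 symbols and gave gene types, promoters and microRNAs, and the exon unions came from GENCODE. On simulated counts, edgeR called 191 of 200 genes changed 3-fold (95.5%) and 10 unchanged ones. Alternatives were DESeq2 1.42.0, limma 3.58.1 on log2(FPKM + 1) and log2(FPKM + 0.1), other normalizations and filters, a replicate block, and leaving out each pool.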

Additional observations from a re-analysis of the deposited data

How the results depend on the processing

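Each member kept its direction under all 15 alternatives, and the median log2 fold change of the members stayed between 0.92 and 1.16. The number of members called higher was 4 in the main fit and between 3 and 4 without 1 pool. The number of genes called higher, 164 in the main fit, was 268 with DESeq2, 65 with limma on log2(FPKM + 1), 316 without a fold limit and between 85 and 158 without 1 pool. The number called lower, 10 in the main fit, was 37, 0, 85 and between 0 and 18 under the same changes. Other long noncoding RNAs called were 25 in the main fit, 70 with DESeq2, 7 with limma on log2(FPKM + 1) and between 11 and 24 without 1 pool, and calls in the fixed lists went from 16 to 37 without a fold limit.

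Replicate numbers did not pair the pools, since the same-numbered deviations correlated at -0.0026, 0.062 and -0.255. With the replicate block, 86 genes were called higher, 0 lower and 11 other long noncoding RNAs, and the 4 members called remained, while those past an adjusted p under 0.05 without a fold limit went from 6 to 4, without Mirg and Snhg14. Where no gene was called lower, the unadjusted edgeR test of the main fit had 1449 lower genes at p under 0.05. The cause of these changes was not tested.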
